A study of Rattus norvegicus with 12 samples.

Results

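The difference between the hepatic and the renal response to trichloroethylene (TCE), a chlorinated solvent, was measured gene by gene in rats. For each gene, TCE minus control in kidney was subtracted from TCE minus control in liver, on the log2 scale, where 1 unit is a 2-fold change. The result is above 0 where the effect was higher in liver and below 0 where it was lower in liver, and it uses all 12 of the 12 arrays. Each gene was represented by its singly named probe set with the highest mean over those arrays, and 10652 of 14217 named genes passed a filter on dim signals. The rats were males, 7 to 9 weeks old and 190 to 240 g in weight, labelled as strain F-344 and also as Wistar-derived, kept on 12 h of light per day starting at 4 h on the clock. The 3 rats called TCE received 16 mg/kg per day by mouth for 3 days in 5 ml/kg of corn oil, the 3 called control received the oil without TCE, and all were killed 24 h after the last dose. About 50 mg of liver and of renal cortex from these 6 rats gave 3 arrays in each of the 4 groups (liver TCE, liver control, kidney TCE, kidney control). The study concerned the hepatic vitamin B12-dependent methionine pathway and the formic acid that TCE-treated rats excrete.

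As background, TCE is oxidised in hepatocytes, largely by the cytochrome P450 enzyme Cyp2e1, to chloral hydrate and trichloroacetic acid, and a smaller share is conjugated to glutathione. The glutathione conjugates reach the kidney, where the proximal tubule processes them further, so both organs meet the compound through different metabolites. Liver and kidney also carry their own circadian clocks, in which BMAL1 and CLOCK drive genes such as Dbp and Per3, while REV-ERB and ROR proteins act on Bmal1.

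The tissues carried their own markers. The summed level of the 14 hepatocyte markers on the array was 18.7 to 18.8 (log2) in the 6 liver arrays and 13.9 to 14.9 in the 6 kidney arrays. The 14 proximal tubule markers summed to 18.2 to 18.3 in kidney and 12.9 to 13.1 in liver. Arrays of a group correlated at 0.993 to 0.997 across probe sets. Kidney control replicate 2 stood apart in plasma protein genes and in Cps1, a further hepatocyte marker. Albumin (Alb) was 12.8 on that array and 9.89 and 7.84 on the other kidney control arrays, against 11, 4.36 and 6.31 in the TCE-treated kidneys. Cps1 was 6.15 on it and 3.90 and 2.45 on the other kidney controls, against 2.95, 2.32 and 2.41 in the treated kidneys. A sign of RNA quality also differed on average between treated and control arrays, in opposite directions in the 2 tissues. The Gapdh control probe sets near the 3' end exceeded those near the 5' end by 1.49 ± 0.254 (SD, n = 3) in liver TCE and 0.814 ± 0.0398 in liver control, but by 0.655 ± 0.189 in kidney TCE and 0.971 ± 0.110 in kidney control. The TCE effect on this gap was 0.992 higher in liver than in kidney (two-sided exact permutation test within tissue, p = 0.01, 400 arrangements, smallest possible p 0.005). This test, also used for Actb, takes the tissues as independent, although both came from the same 6 rats. No label ties arrays to rats across the tissues, so a test that permutes rats was not run. For each tissue alone, where few arrangements exist, the exact permutation p was 0.1 in liver and 0.2 in kidney. The gap of Actb control probe sets differed in the same direction, by 0.864 (exact permutation p = 0.035), but this p rose above 0.05, to at most 0.135, when any 1 of 7 arrays was left out: each liver TCE array, kidney TCE replicate 3, kidney control replicate 3, and liver control replicate 2 or 3. The part of these gaps in the gene results was examined with each as a covariate, and those values stand beside the counts.

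**Figure D1:**
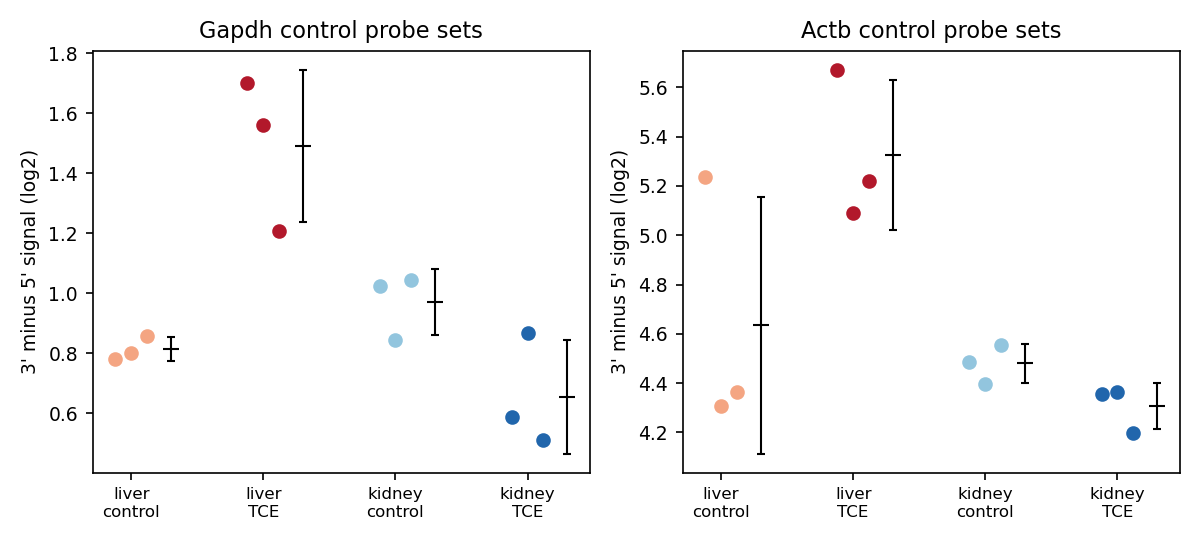
3' minus 5' signal (log2) of the Gapdh (left) and Actb (right) control probe sets on each array, by group; points are arrays, and the dash and bar beside them are the mean and SD of 3 arrays. The Gapdh gap was 1.49 on average in liver TCE against 0.814 in liver control, and 0.655 in kidney TCE against 0.971 in kidney control.

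Taken alone in the fit over 12 arrays, the TCE effect passed limma's adjusted threshold of 0.05 for 138 genes in liver (1.3%), 65 of them higher (0.61%), and for 10 in kidney (0.0939%), 5 of them higher (0.0469%). Fitted on the 6 arrays of each tissue alone, limma called 0 genes in either (1546 in liver and 1566 in kidney at an unadjusted p under 0.05). In the fit over 12 arrays, the TCE effect had an unadjusted p under 0.05 for 1911 genes in liver (17.9%) and 1373 in kidney (12.9%). It had so in both tissues for 291 (2.73%), with the same sign in 113 (1.06%) and opposite signs in 178 (1.67%). Across the 10652 genes, the TCE effects in liver and kidney had little in common, with the same sign in 46.3% of genes and a Pearson r of -0.02 across genes, which are not independent replicates. The difference passed limma's moderated test at a Benjamini-Hochberg adjusted p under 0.05 for 57 genes (0.535% of those tested). Of these, 20 (0.188%) had a higher effect in liver and 37 (0.347%) a lower one. At an unadjusted p under 0.05 there were 1861 genes (17.5%), 1064 higher (9.99%) and 797 lower (7.48%). The 57 genes comprise, among others, the clock output genes Dbp and Per3, the proliferation marker Mki67, the smooth muscle gene Tagln, enzymes of carbon metabolism (Me1, Pdk1, Dld), subunits of the respiratory chain (Ndufb8, Uqcrc2) and the tissue kallikrein Klk1c4.

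The 57 calls depended on single arrays. Without kidney TCE replicate 1, limma called 0 genes (1409 at an unadjusted p under 0.05), and without kidney control replicate 1 it called 2, of which 1 was among the 57. The count was 18 without kidney control replicate 3, 29 when either liver TCE replicate 2 or replicate 3 of the liver controls was left out, 30 when liver TCE replicate 1 was, and 32 when kidney TCE replicate 3 was. Dropping liver control replicate 1 left 35 calls, and dropping replicate 2 of that group left 36, but the count was 108 without kidney TCE replicate 2 and 93 without liver TCE replicate 3. When the Gapdh gap entered as a covariate, limma called 0 genes (568 at an unadjusted p under 0.05). The median standard error then grew from 0.199 to 0.397, and the median size of the difference over the 57 genes went from 0.933 to 0.784. With the Actb gap as a covariate, 24 genes were called, 6 of them among the 57. Liver and renal cortex came from the same 6 rats, but no label ties a replicate number to a rat across the tissues. If equal numbers mark 1 rat, a fit with the rat as a replicate block calls 0 genes (1734 at an unadjusted p under 0.05). Of the 57 genes, 4 were not measurable in 1 tissue, averaging there below the 40th percentile of all probe sets: Klk1c4 in liver, and Zfp64, Ccdc191 and Rgs12 in kidney. These 4 passed the filter on the mean over 12 arrays (2.55) through the 1 group where they were high. That group was kidney TCE for Klk1c4 (6.41), liver TCE for Ccdc191 (3.92), and liver control for Zfp64 (4.11) and Rgs12 (3.75). Their means in the other groups were 2.18 to 2.76, so these calls are tied to the filter. Rgs12 was tested in 9 of the 12 fits without 1 array and passed in 0.

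**Figure D2:**
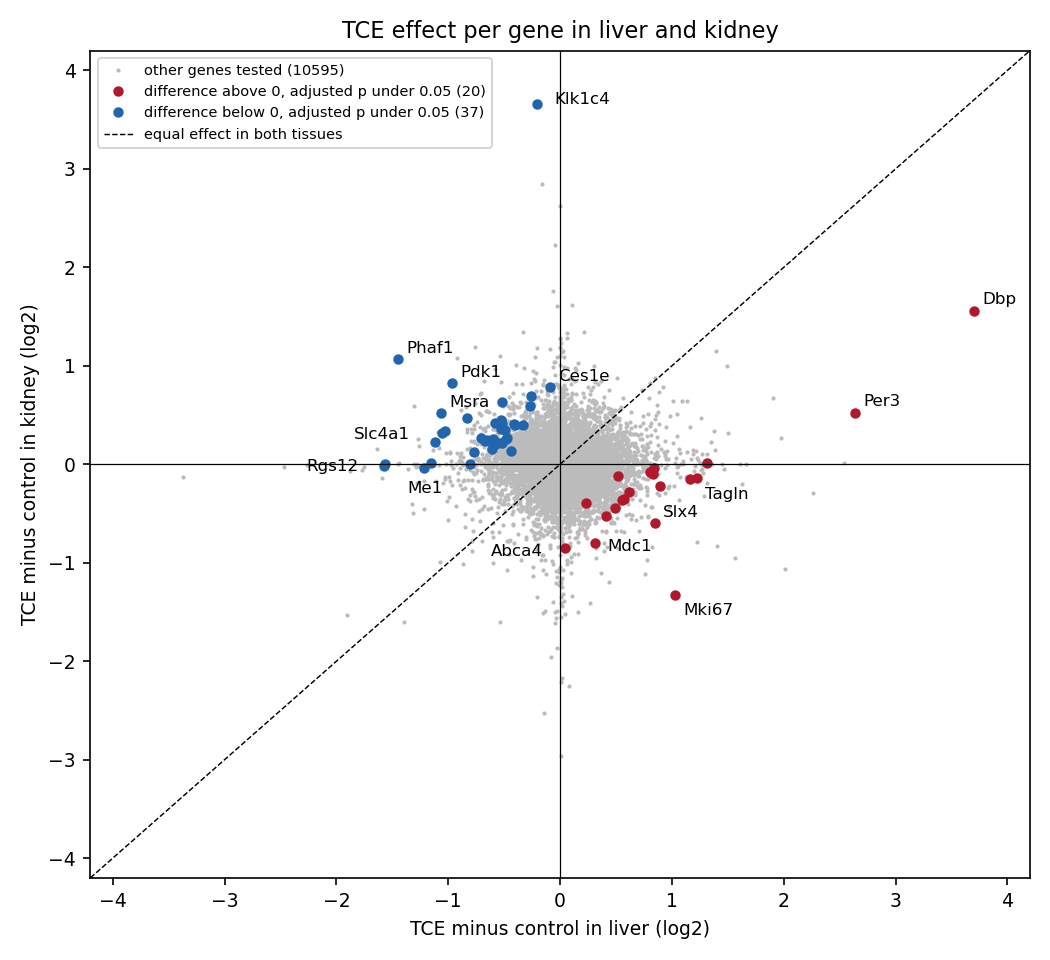
TCE minus control (log2) in liver on the x axis and in kidney on the y axis for each of the 10652 genes tested; the dashed line marks equal effects. The 20 red genes lie to the lower right of that line and the 37 blue genes to its upper left, and Dbp and Per3 are the coloured genes with effects above 0 in both tissues at a distance from either axis.

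Genes were sorted by the effect in each tissue, with unadjusted p-values under 0.05. Opposite effects had the difference and both tissues past that p, opposite signs, and a size of at least 1.2-fold in each tissue. They were found for 115 genes (1.08%), 57 higher in treated liver and lower in treated kidney (0.535%) and 58 the other way (0.544%). Genes past that p throughout but under 1.2-fold in a tissue were counted as tissue-limited. A liver-limited effect, with kidney under 1.2-fold (0.263 log2 units) in size, was found for 792 genes (7.44%), 461 up (4.33%) and 331 down (3.11%), and a kidney-limited effect, with the tissues exchanged, for 540 (5.07%), 243 up (2.28%) and 297 down (2.79%). Effects of the same sign but different size were found for 5 genes (0.0469%). That count was 2 or 3 without kidney TCE replicate 1 or 2, 8 without liver TCE replicate 2 or kidney control replicate 2, and 10 without liver control replicate 3. A further 409 genes (3.84%) had a difference past that p but fell into no class. The other 8791 genes had no difference past that p and were not classed. Of the 57 genes past the adjusted threshold, 23 were opposite, 25 liver-limited, 4 kidney-limited, 2 of the same direction and 3 in no class. Counted by the arrays alone, treated and control arrays stood apart without overlap in both tissues for 202 genes in the same direction (1.9%) and for 267 in opposite directions (2.51%). Of the latter, 119 were up in liver (1.12%) and 148 down in liver (1.39%). Since the classes rest on unadjusted p-values in each tissue, they describe and were not tested further. Leaving out kidney TCE replicate 2 raised the opposite class to 176 genes, leaving out kidney TCE replicate 1 lowered the kidney-limited class to 330, and the Gapdh covariate lowered the liver-limited class to 191 and the kidney-limited class to 10.

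Among opposite effects past the threshold, 15 genes were lower in treated liver and higher in treated kidney. Phaf1, which acts in the assembly of autophagosomes, read 4.18, 4.16 and 4.64 in liver TCE and 5.88, 5.61 and 5.84 in liver control. In kidney it read 4.95, 5.07 and 4.47 with TCE and 4.04, 3.74 and 3.52 in controls. Treated and control arrays thus did not overlap in either tissue, and moved in opposite directions. The difference was -2.52 ± 0.276 (SE; limma, 95% interval -3.13 to -1.91, adjusted p = 0.0142), from -1.45 in liver and 1.07 in kidney. It was past the threshold without 11 of the 12 arrays in turn, the exception being kidney TCE replicate 1.

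Pdk1, a kinase that switches off pyruvate dehydrogenase, had 9.36, 9.67 and 9.84 in liver TCE against 10.84, 10.51 and 10.44 in liver control. Its kidney values were 5.72, 6.11 and 5.57 with TCE and 4.87, 4.91 and 5.15 in controls. The groups did not overlap in either tissue, and the difference was -1.79 ± 0.245 (limma adjusted p = 0.0202). Its second probe set above the filter gave a difference of -0.81, with 0.16 in kidney. Dld, the dihydrolipoamide dehydrogenase shared by pyruvate dehydrogenase and the glycine cleavage system, was -0.49 in liver and 0.34 in kidney (difference -0.84 ± 0.136, limma adjusted p = 0.0342).

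Msra, which repairs oxidised methionine residues, was 7.86, 8.23 and 8.49 in liver TCE and 9.34, 9.25 and 9.19 in liver control. In kidney, Msra was 10.93, 11.18 and 11 with TCE and 10.46, 10.57 and 10.52 without. Every treated liver array lay below and every treated kidney array above its controls (difference -1.58 ± 0.198, limma adjusted p = 0.0162). Prdx6, a peroxiredoxin that reduces lipid peroxides, had a smaller difference of -0.74. Magt1 and Ost4, both components of oligosaccharyltransferases, which attach N-linked glycans in the endoplasmic reticulum, had differences of -1.31 and -0.89, and a second Ost4 probe set gave -1.33. The phosphate and urate transporter Slc17a1 was -0.53 in liver and 0.45 in kidney (difference -0.98 ± 0.166, limma adjusted p = 0.0401). Prkacb, a catalytic subunit of protein kinase A, was -0.41 in liver and 0.40 in kidney, and its second probe set above the filter had a difference of -0.92. The other genes of this orientation past the threshold were Ndufb8, Nck1, Ddx3x, Papola, Lactb and Rab40b. All of these but Ndufb8, and also Prdx6 and Ost4, were named after their values were seen. A further Papola probe set pointed the other way, at 0.19, and a further Rab40b set gave -0.02 against -0.86 for the set used.

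The reverse orientation, higher in treated liver and lower in treated kidney, held 8 genes past the threshold. Mki67, a nuclear protein of dividing cells, read 4.76, 4.65 and 3.97 in liver TCE and 3.40, 3.57 and 3.35 in liver control. In kidney it read 4.38, 4.38 and 4.88 with TCE and 5.30, 6.0 and 6.31 in controls. The groups did not overlap in either tissue, and the difference was 2.35 ± 0.388 (limma, 95% interval 1.49 to 3.21, adjusted p = 0.0364). In bulk tissue, fewer cells of a type and less RNA per cell cannot be told apart, here and for the lists that follow.

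Slx4, a scaffold for nucleases that resolve DNA junctions, was 0.85 in liver and -0.59 in kidney (difference 1.44 ± 0.259, limma adjusted p = 0.0465), while its further probe set gave 0.13. Mdc1, a mediator of the DNA damage checkpoint, was 6.81, 7.14 and 7.01 in liver TCE and 6.65, 6.71 and 6.68 in liver control. Its kidney values were 6.85, 7.12 and 7.20 with TCE and 8.05, 7.70 and 7.82 without, so that most of its difference of 1.11 came from kidney (-0.80 against 0.31 in liver). Myo18a, an unconventional myosin, was 0.58 in liver and -0.35 in kidney, and a second probe set gave a difference of 0.70. Raver1, an RNA-binding protein, was 0.49 and -0.44. The others were Lrsam1, Myo7b and Sphk2, with differences of 0.91, 0.89 and 0.94. Genes with larger but more variable opposite effects did not pass, such as Prob1 (1.87, adjusted p = 0.0932) and Exoc5 (-1.52, adjusted p = 0.0619), an exocyst subunit whose second probe set gave -1.59.

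**Figure D3:**
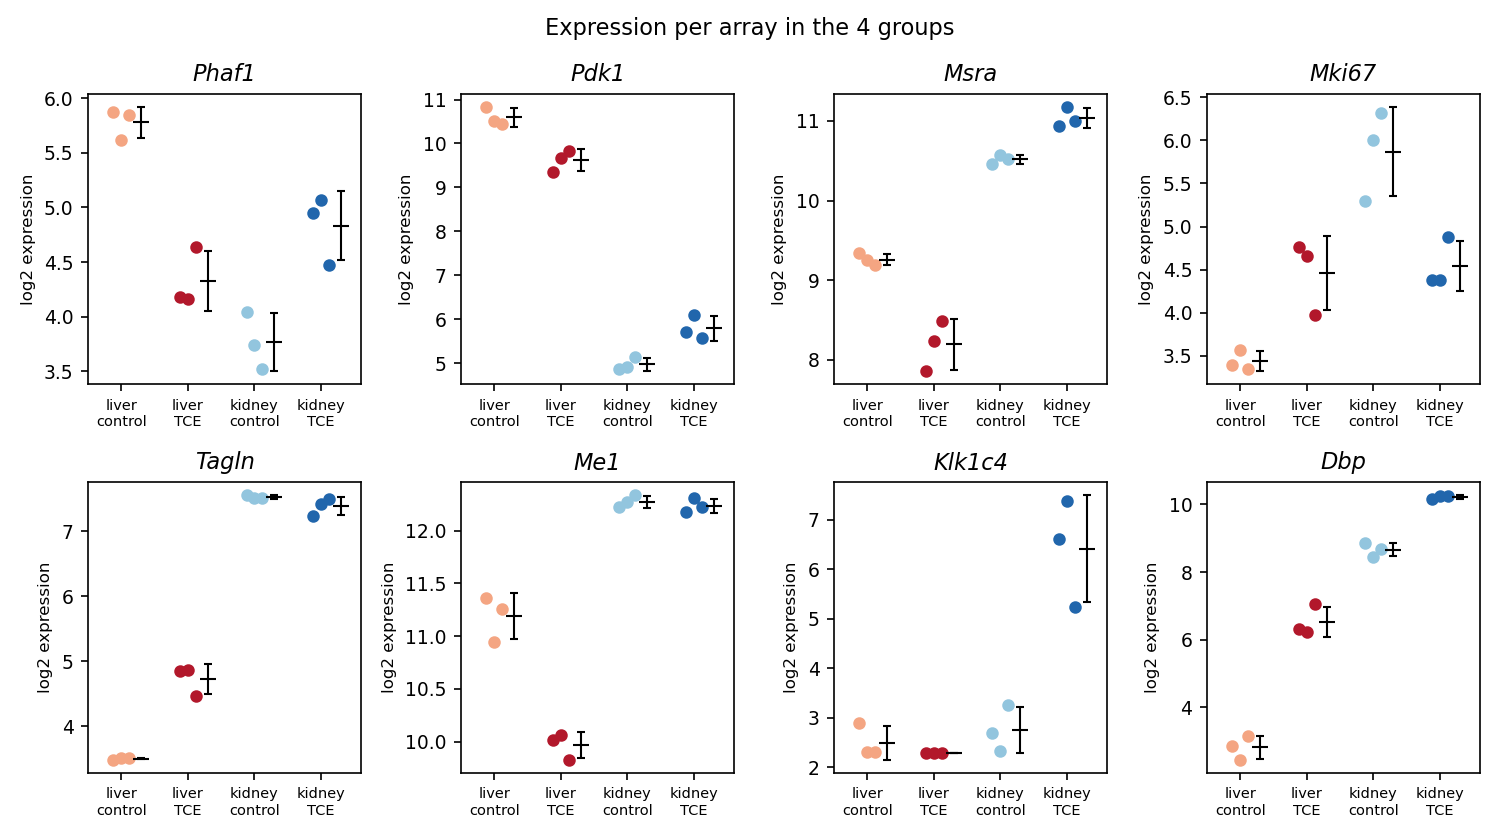
Log2 expression of 8 genes on each of the 12 arrays, by group; points are arrays, and the dash and bar beside them are the mean and SD of 3 arrays. Phaf1, Pdk1 and Msra were lower in treated liver and higher in treated kidney, Mki67 the reverse, Tagln and Me1 differed in liver, Klk1c4 in kidney, and Dbp was higher with TCE in both tissues, by 3.71 in liver and 1.56 in kidney.

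The size of these differences moved unevenly with the Gapdh gap as covariate, under which no gene passed. Phaf1, Pdk1 and Mdc1 kept differences of -2.36, -1.77 and 1.10, Mki67 had 1.81, Msra -1.05 and Ndufb8 -0.66. Slx4 had 0.25. Without each array in turn, Pdk1 and Msra were past the threshold in 10 of 12 fits, Mdc1 in 5, and Mki67, Slx4 and Slc17a1 in 3, with differences for Mki67 between 2.13 and 2.63.

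Liver-limited effects past the threshold comprised 8 genes higher and 17 lower in treated liver. Tagln, which binds actin in smooth muscle and in activated stellate cells, was 4.85, 4.87 and 4.46 in liver TCE and 3.49, 3.51 and 3.51 in liver control. In kidney it was 7.24, 7.42 and 7.50 with TCE and 7.55, 7.51 and 7.50 in controls. The treated kidneys thus lay below the controls by a narrow margin, opposite to liver. The difference was 1.36 ± 0.159 (limma adjusted p = 0.0142), and the 95% interval of the kidney effect, -0.39 to 0.11, reached past the 1.2-fold bound. Mafg, a small Maf protein that pairs with NRF2, was 0.84 in liver and -0.10 in kidney (difference 0.93 ± 0.132, limma adjusted p = 0.0203), whereas its second probe set had a difference of -0.13. Dlgap4 and Sphkap, which encode scaffold proteins, had differences of 1.12 and 1.31. Zfp213 had a difference of 0.88, but of its further probe sets above the filter 2 pointed the other way (-0.61 and -0.08). The call for Zbtb24 (0.87) had a further probe set at -0.01. Ccdc191 and Polr3e complete the group, the former not measurable in kidney.

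Me1, a malic enzyme of the cytosol whose NADPH serves fat synthesis, was 10.01, 10.06 and 9.83 in liver TCE and 11.36, 10.94 and 11.26 in liver control. Its kidney values lay between 12.17 and 12.34 on all 6 arrays. The treated livers were below all control livers, while the kidney groups overlapped (difference -1.18 ± 0.159, limma adjusted p = 0.0194; kidney effect -0.04, 95% interval -0.29 to 0.21). A second Me1 probe set gave -1.37. With the Gapdh gap as covariate, Me1 had a difference of -1.53 and Tagln of 0.86, neither past the threshold, and without each array in turn both were past it in 10 of 12 fits. St6galnac3, a sialyltransferase of gangliosides, was 2.66, 2.49 and 2.46 in liver TCE, close to the limit of detection, and 3.76, 3.53 and 3.68 in liver control, while kidney arrays read 8.52 to 9.02. Its difference was -1.35 ± 0.150 (limma adjusted p = 0.0142).

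Among the other lower genes, Rhoa, a small GTPase of the actin cytoskeleton, had a difference of -0.74, and -1.34 by a second probe set. That second set was -0.96 in liver and 0.38 in kidney, the latter past the 1.2-fold bound of the class. Skp1, a subunit of SCF ubiquitin ligases, had -0.91, the cytoplasmic actin gene Actg1 had -0.81, and the membrane proteins Tmem160 and Tmem14c had -0.77 and -0.90. In 10 of the 25 liver-limited genes past the threshold the kidney arrays stood apart in the direction opposite to liver, by less than the 1.2-fold bound that defines the class: Tagln, Dlgap4, Tmem160, Tmem14c, Skp1, Rhoa, Vps41, Qdpr, Fbxo8 and Adipor2. For Rhoa and Skp1 the kidney effects were 0.22 and 0.25. Uqcrc2, Zfp64, Rgs12, Vps41, Echdc1, Qdpr, Fbxo8, Adipor2, Vkorc1 and LOC100909782 complete the group. Adipor2 is a receptor for adiponectin, Vkorc1 recycles vitamin K for clotting factors, and Qdpr recycles tetrahydrobiopterin.

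Kidney-limited effects past the threshold were 4. Klk1c4, a kallikrein serine protease, was 6.61, 7.38 and 5.25 in kidney TCE and 2.69, 2.34 and 3.25 in kidney control. In liver it was near the lowest signal on all arrays, at 2.29, 2.29 and 2.29 with TCE and 2.89, 2.30 and 2.30 without, so it was not measurable there. The treated kidneys stood above the controls without overlap, by 3.65 (limma, 95% interval 2.66 to 4.64). The fitted difference of -3.86 passed (adjusted p = 0.0342), but no hepatic effect was measured against which the renal one could be set. The kallikrein genes of the rat are a family of near-identical copies, so the probe set may also read other members.

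Ces1e, a carboxylesterase, was 3.17, 3.46 and 3.17 in kidney TCE and 2.51, 2.42 and 2.53 in kidney control, against 11.04 to 11.24 on the 6 liver arrays. The difference was -0.87 ± 0.136 (limma adjusted p = 0.0295), with a liver effect of -0.09 (95% interval -0.31 to 0.12). Abca4, a lipid transporter, was 7.84, 8.19 and 8.11 in treated and 8.90, 8.74 and 9.04 in control kidneys, and 2.49 to 2.67 in liver. Its kidney effect of -0.85 gave a difference of 0.90 ± 0.153 (limma adjusted p = 0.0415). With the Gapdh gap as covariate the difference was -0.95 for Ces1e and 0.60 for Abca4, neither past the threshold, and without each array in turn the calls held in 4 and 3 of 12 fits, and in 3 for Klk1c4. For Eif5b, a translation initiation factor with a difference of 0.62, 2 further probe sets pointed the other way, both at -0.17. By the set used, Eif5b was 0.23 in liver and -0.39 in kidney. Its treated and control arrays stood apart in both tissues, in opposite directions, with the liver effect under the 1.2-fold bound.

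Several kidney-limited genes did not pass. Cyp2e1, which oxidises TCE, was 12.63, 12.50 and 12.69 in kidney TCE and 11.81, 12.16 and 11.40 in kidney control, and 14.89 to 15.13 in liver. The treated kidneys lay above the controls and the liver groups overlapped, but the difference of -0.85 ± 0.226 had an adjusted p of 0.118 by limma. Gsdmd, the pore-forming gasdermin D, was 1.28 in kidney and 0.06 in liver (adjusted p = 0.0832). Stra6, a retinol transporter that was not measurable in liver, had a kidney effect of 2.62 (2.15 by a second probe set, adjusted p of the difference 0.114), with control kidneys spread from 2.64 to 4.98.

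Dbp and Per3 were the 2 genes past the threshold with effects of the same direction in both tissues and different size. Dbp, a circadian transcription factor, was 6.31, 6.23 and 7.05 in liver TCE and 2.87, 2.46 and 3.14 in liver control. In kidney it was 10.17, 10.25 and 10.26 with TCE and 8.85, 8.46 and 8.68 in controls. TCE arrays were above controls in both tissues, by 3.71 in liver and 1.56 in kidney, a difference of 2.14 ± 0.318 (limma adjusted p = 0.0214). Per3, a period protein gene, was 6.07, 6.53 and 6.14 against 3.42, 4.01 and 3.39 in liver, and 7.48, 7.81 and 7.63 against 7.20, 7.06 and 7.08 in kidney. Its effects of 2.64 and 0.52 gave a difference of 2.11 ± 0.250 (limma adjusted p = 0.0142).

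Of the 13 clock genes listed as in phase with Dbp, 10 were above 0 in liver and 12 in kidney. The difference was above 0 in 8 of them, with a median of 0.341 (all genes: 55.8% above 0, median 0.0429), and 2 passed, Dbp and Per3. Without kidney control replicate 1 that median was 0.153. Bhlhe41, a repressor of the clock loop, was the exception in size: it was 6.49, 7.28 and 7.25 in kidney TCE and 5.89, 5.75 and 6.10 in kidney control, with overlapping liver arrays (difference -1.32 ± 0.306, limma adjusted p = 0.0929). Of the 6 genes in antiphase that were tested, 5 were below 0 in liver and 4 in kidney, and none passed for the difference, although 3 of the 6 had an unadjusted p under 0.05. Bmal1 was 6.27, 6.93 and 6.55 against 8.12, 7.89 and 7.69 in liver, and 4.73, 4.95 and 4.89 against 5.58, 5.54 and 4.94 in kidney (difference -0.83 ± 0.289, limma adjusted p = 0.193). Cry1, a cryptochrome repressor, was -0.96 in liver and -0.21 in kidney (adjusted p = 0.0853). Nfil3, a repressor that competes with Dbp for the same sites, was -1.07 in liver and -0.99 in kidney, with a 95% interval of the difference from -0.82 to 0.66. For Nr1d2, 2 further probe sets had differences of -1.30 and -0.27 against 0.37 for the set used, and for Per2 a dim one had -0.79 against 0.49.

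The upstream sequences of Bhlhe41 and Bmal1 are shown because of the clock genes with an unadjusted p under 0.05 for the difference and a sequence in the table, their 250 upstream bases hold a clock motif. They come from RefSeq on assembly GRCr8, Bhlhe41 at chr4:180569356-180569605 on the minus strand and Bmal1 at chr1:176766078-176766327 on the plus strand, and capitals mark the E-box CACGTG in the first and the core AGGTCA of the REV-ERB and ROR element in the second.
Bhlhe41: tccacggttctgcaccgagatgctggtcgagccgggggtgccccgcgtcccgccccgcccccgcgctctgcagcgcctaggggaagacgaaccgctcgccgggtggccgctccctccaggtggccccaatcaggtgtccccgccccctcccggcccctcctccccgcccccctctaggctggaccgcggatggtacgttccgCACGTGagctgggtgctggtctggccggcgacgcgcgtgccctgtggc
Bmal1: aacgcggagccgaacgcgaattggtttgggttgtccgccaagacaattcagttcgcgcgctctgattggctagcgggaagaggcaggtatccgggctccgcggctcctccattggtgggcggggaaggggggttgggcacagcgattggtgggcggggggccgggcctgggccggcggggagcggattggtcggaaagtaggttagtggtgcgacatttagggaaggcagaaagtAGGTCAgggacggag

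Both strands were searched for CACGTG, for the D-box TTATGTAA that Dbp and Nfil3 bind, and for AGGTCA. They occur in 5.59%, 0.828% and 14.1% of all 33469 windows of that length. Of the 22 windows found for 18 of the 23 listed clock genes, 5, 1 and 3 held them. The windows of Dbp and Per3 held none of the 3, which says only that these letters are not in this stretch. Of the 51 windows of 49 of the 57 genes past the threshold, 4 held the E-box, 1 the D-box and 0 the AGGTCA core.

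Gene lists are described by counts and medians beside those of all genes tested. In the cell cycle list, the difference was above 0 in 27 of its 29 tested genes (all genes: 55.8%). Its median difference was 0.616, from 0.377 in liver and -0.309 in kidney, and 26 of 29 were above 0 in liver and 26 of 29 below 0 in kidney. At an unadjusted p under 0.05, 13 were higher and 1 lower (all genes: 9.99% and 7.48%), and 1, Mki67, passed the adjusted threshold. The cyclin Ccnb2 was 1.22 in liver and -0.79 in kidney (difference 2.01, limma adjusted p = 0.114), the mitotic kinase Cdk1 1.41 and -0.83 (2.24, 0.167), the replicative helicase subunit Mcm6 0.82 and -0.84 (1.66, 0.216), and the topoisomerase Top2a 0.52 and -0.85 (1.37, 0.189). Pcna, the sliding clamp of DNA replication, and the mitotic motor Kif11 were the 2 members with a difference below 0. With the Gapdh gap as a covariate, 23 of 29 were above 0, with a median of 0.450 and 1 gene at an unadjusted p under 0.05. Without each array in turn, 25 to 28 members were above 0, the median was 0.505 to 0.661, and 11 to 18 had an unadjusted p under 0.05.

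Mesenchymal markers also had differences above 0, in 13 of 15 genes (all genes: 55.8%), with a median of 0.661. These markers were 0.332 in liver and 0.0163 in kidney at the median, and 1, Tagln, passed. In liver 12 were above 0 and 3 below, and in kidney 8 were above and 7 below. Of the 7, the collagen gene Col1a1 was 0.33 in liver and -0.33 in kidney. The growth factor receptor gene Pdgfra was 0.30 and -0.49 (difference 0.78, limma adjusted p = 0.107), and the muscle filament gene Des 0.35 and -0.54. The summed level of the 16 markers on the array was 12.8 to 13.2 in liver TCE and 12.6 to 12.7 in liver control, and 12.4 to 13.2 in kidney TCE and 12.7 to 12.9 in kidney control. The sums of other marker lists also differed between treated and control liver without overlap. The summed neutrophil markers, of which 2 of 7 passed the filter, were 8.15 to 8.46 in liver TCE and 6.95 to 7.59 in liver control. The cholangiocyte markers were 13.1 to 13.3 and 12.6 to 12.8, but summed higher in kidney, to 14.2 to 14.6 with TCE and 14.3 to 14.5 in controls. Collecting duct markers, of a kidney cell type, were 6.74 to 7.38 in liver TCE and 7.42 to 7.72 in liver control. A shift in such a sum thus does not by itself show a change in the named cell type. The part of these lists in the gene results was not tested. Podocyte markers lay on the other side, with 8 of 10 below 0 and a median of -0.331 (-0.206 without liver control replicate 1, -0.184 with the Gapdh covariate), and the podocyte phosphatase gene Ptpro passed, at -0.26 in liver and 0.69 in kidney (difference -0.95 ± 0.175, limma adjusted p = 0.0497). The podocyte markers summed to 11.8 to 12.1 in kidney TCE and 11.6 to 11.7 in kidney control, and to 8.25 to 8.47 and 7.92 to 8.28 in treated and control liver. Slc4a1, the anion exchanger of red cells and of acid-secreting cells in the collecting duct, was -1.06 in liver and 0.32 in kidney (difference -1.38 ± 0.237, limma adjusted p = 0.0423). The summed erythroid markers lay lower in treated liver too, at 13.4 to 14.0 against 14.3 to 14.6 in control, and overlapped in kidney. All 3 erythroid genes tested, Slc4a1 among them, had differences below 0, and the part of blood in its call was not tested.

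**Figure D4:**
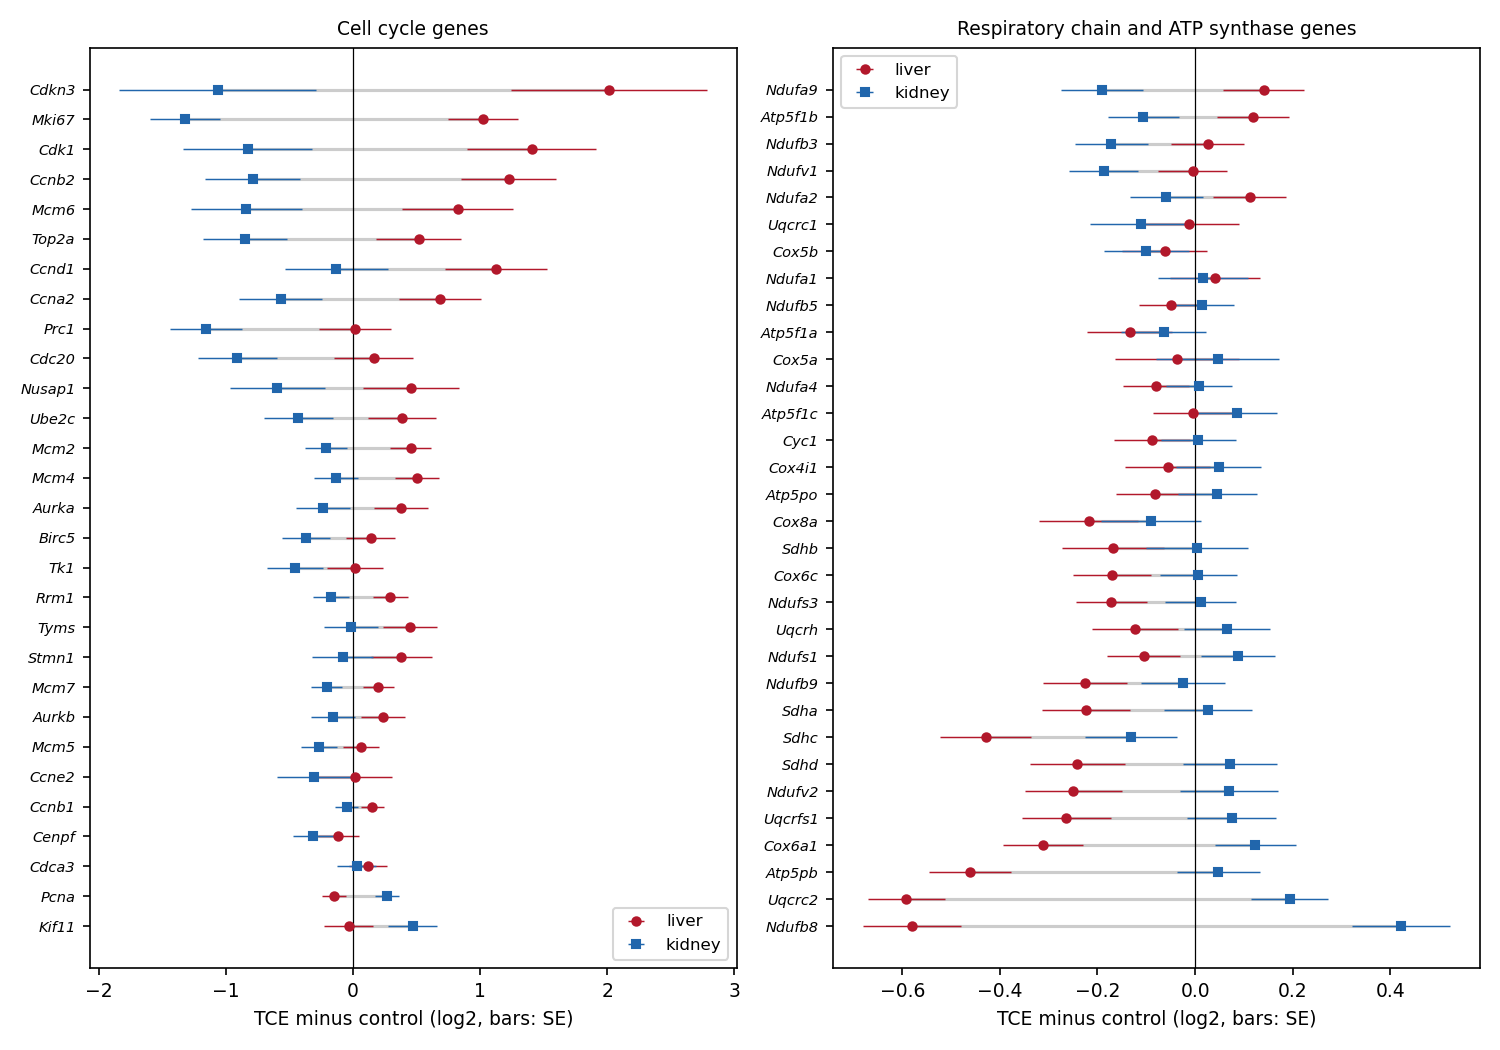
TCE minus control (log2) in liver (circles) and kidney (squares) for each tested gene of the cell cycle list (left, 29 genes) and of the respiratory chain list (right, 32 genes); bars are limma's SE and genes are ordered by the difference in effect. In 27 cell cycle genes the liver effect lies above the kidney effect, and in 24 respiratory chain genes below it.

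Subunits of the respiratory chain and ATP synthase had small differences below 0 in 24 of 32 genes (all genes: 44.2%), with a median of -0.128. Treated liver was below control in 27 of 32, and treated kidney above control in 21 of 32. At an unadjusted p under 0.05, 8 were lower and 1 higher (all genes: 7.48% and 9.99%), and 2 passed. Ndufb8, of complex I, read 9.37, 9.39 and 9.43 in liver TCE against 10.10, 10.08 and 9.76 in control, and 10.69, 10.56 and 10.71 in kidney TCE against 10.27, 10.30 and 10.11 in control. The groups did not overlap in either tissue (difference -1.0 ± 0.143, limma adjusted p = 0.0203). Uqcrc2, a core subunit of complex III, was -0.59 in liver and 0.19 in kidney (difference -0.79 ± 0.113, limma adjusted p = 0.0203). Its second probe set gave -2.04, from -1.55 in liver and 0.49 in kidney, the latter past the bound of the liver-limited class. When the Gapdh gap entered as a covariate, the median of the list turned to 0.0422, and 18 of 32 were above 0.

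Glucose metabolism had 18 of 22 genes below 0 (all genes: 44.2%) and a median of -0.121, with Pdk1 past the threshold. With the Gapdh gap as covariate 10 of the 22 were above 0 and the median was -0.0244, and without kidney control replicate 3 it was -0.0632. Fat synthesis had 15 of 21 below 0 (all genes: 44.2%) and a median of -0.223, with liver at -0.536 and kidney at -0.155, and Me1 past the threshold. Its median was -0.0810, -0.0955 and -0.112 without liver control replicate 1, kidney control replicate 3 and liver TCE replicate 3, and -0.352 without kidney control replicate 2. Pnpla3, a lipase of lipid droplets, had a difference of -3.24 and an adjusted p of 0.217 by limma, and Gpam, which starts glycerolipid synthesis, -1.28, while a dim further Gpam probe set gave 0.28. For fatty acid oxidation under PPAR-alpha, a receptor that trichloroacetic acid activates in rodents, 13 of 24 were above 0 (all genes: 55.8%). With the Gapdh covariate 8 of 24 were above 0. In this list 0 passed (limma, 2 at an unadjusted p under 0.05, all genes: 17.5%).

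In the methionine and vitamin B12 list, 23 of 31 genes had a difference below 0 (all genes: 44.2%). The median was -0.138 (-0.0799 in liver, 0.0231 in kidney), and -0.0906 without kidney control replicate 3. None of the 31 passed limma's adjusted threshold, and 4 had an unadjusted p under 0.05, a share below the 17.5% of all genes. Methionine synthase (Mtr) was 0.29 in liver and 0.32 in kidney, a difference of -0.03 with a 95% interval from -0.61 to 0.55. Mtrr, which reactivates methionine synthase, had -0.05, with an interval from -0.29 to 0.18, and a second probe set at 0.54. Methylmalonyl-CoA mutase (Mmut), the other enzyme that needs vitamin B12, had -0.19 by the set used and -1.03 and -0.34 by further sets. Betaine-homocysteine methyltransferase (Bhmt) was -0.66 in liver and -0.02 in kidney, and the interval of its difference, -1.48 to 0.20, included 0. Lmbrd1, which moves B12 out of lysosomes, was -0.33 in liver and 0.17 in kidney (difference -0.50 ± 0.124, limma adjusted p = 0.108), and a second probe set gave -1.90. In the folate and formate list, 14 of 26 were below 0, and 1, Dld, passed; the median of -0.0236 turned above 0 without kidney TCE replicate 2, liver TCE replicate 3 or kidney control replicate 1. The formyltetrahydrofolate dehydrogenase Aldh1l1 had a difference of -0.17 and Ftcd, a folate enzyme of histidine breakdown, 0.51, both with adjusted p-values above the threshold. A missed threshold does not show that the tissues respond alike.

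Other lists had few or no calls, and several changed side with the setting. Over all genes tested, 55.8% were above 0 and 17.5% had an unadjusted p under 0.05. The TCE oxidation and conjugation list had 16 of 25 members above 0 and 0 past the threshold. It had 4 at an unadjusted p under 0.05, a share below that of all genes: Cyp2e1, Gstz1, Ephx1 and Kyat3. Its median of 0.0649 turned to -0.165 with the Gapdh covariate (7 of 25 above 0) and to -0.0363 without liver control replicate 1 (11 of 25). NRF2 and oxidative stress had 16 of 25 above 0 with 1 past, Mafg. Organic ion and drug transporters had 18 of 27 above 0 with 1 past, Slc17a1, which lay below 0, and 12 of the 27 were above 0 with the Gapdh covariate. Complement, coagulation and plasma protein genes had 24 of 31 above 0 and a median of 0.170, with kidney at -0.308 and liver at -0.00997, and 0 past (limma, 1 at an unadjusted p under 0.05). Without kidney control replicate 2, the array with the high albumin value, 14 of these 31 were above 0 and the median was -0.0866. With the Gapdh covariate 27 of 31 were above 0 and the median was 1.24. The unfolded protein response list had 16 of 30 above 0 and glucocorticoid targets 12 of 31, against 22 of 30 and 22 of 31 with the Gapdh covariate, each with 0 past (limma, 5 and 0 at an unadjusted p under 0.05). Cholesterol synthesis (8 of 20 above 0), bile acid and FXR (11 of 14) and p53 targets (7 of 16) also had 0 past, with 4, 2 and 1 members at an unadjusted p under 0.05.

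**Figure D5:**
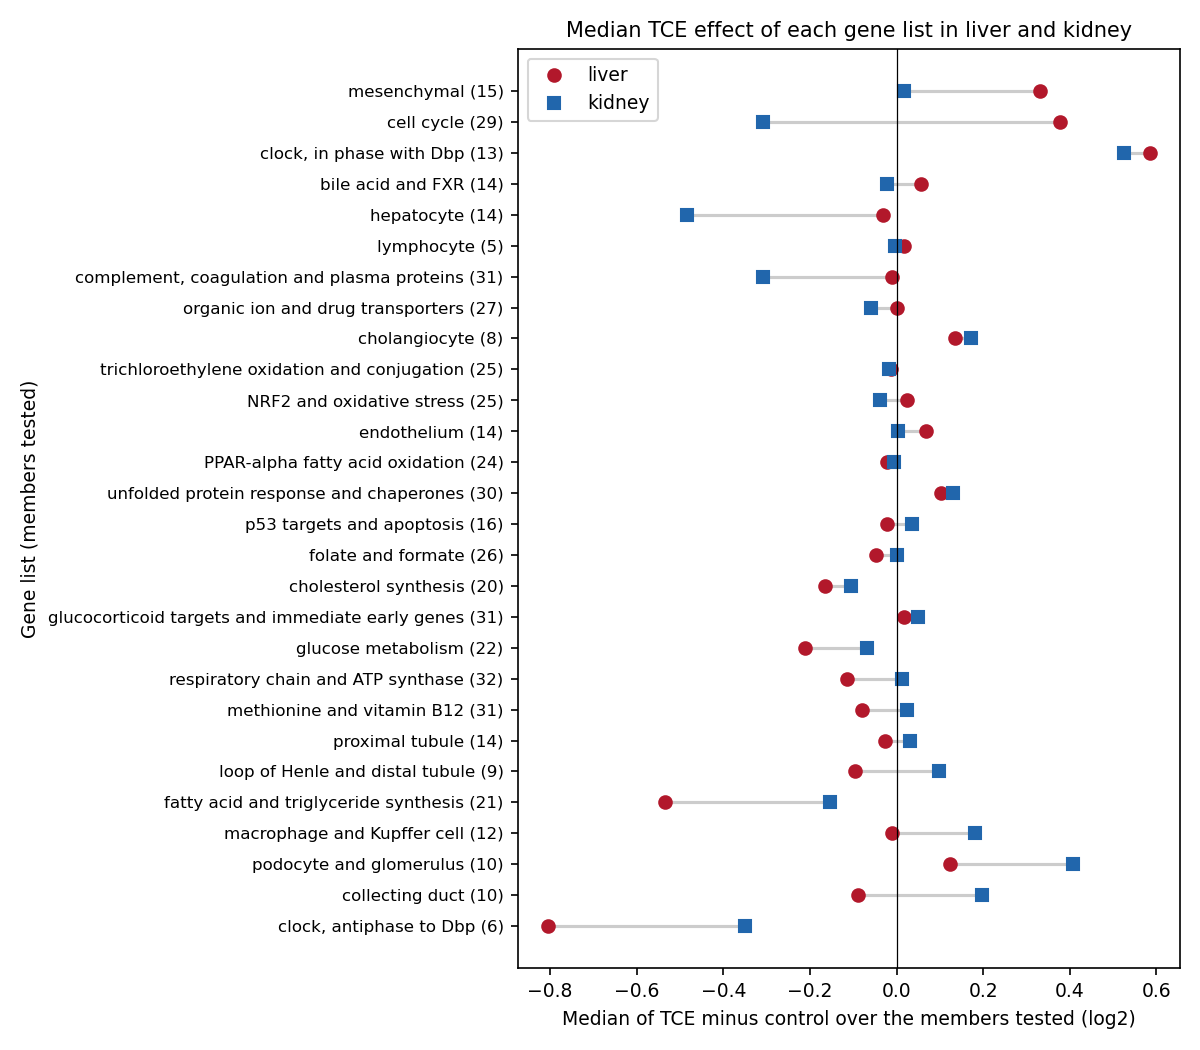
Median of TCE minus control (log2) over the tested members of each gene list, in liver (circles) and kidney (squares), for lists with at least 5 members tested (number in brackets). The cell cycle list lies at 0.377 in liver and -0.309 in kidney, and both clock lists lie on the same side of 0 in the 2 tissues.

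Further probe sets of the same genes gave a second reading. Of 23 further sets above the filter for 18 of the 57 genes, 16 (69.6%) had the same sign of the difference, against 57.4% of 3508 sets over all genes. For opposite effects it was 28 of 38 (73.7%), for liver-limited 184 of 283 (65.0%) and for kidney-limited 144 of 213 (67.6%). The further sets mostly read smaller differences: their ratio to the set used had a median of 0.412 for the 57 genes, 0.263 for opposite, 0.298 for liver-limited and 0.309 for kidney-limited effects, and 0.265 over all genes. Vps41 (-1.69 against -0.77) and Ddx3x (-1.44 against -0.73) were among the exceptions. The further Vps41 set was 0.54 in kidney, past the bound of the liver-limited class in which the set used placed the gene.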

How the data were processed

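Total RNA of rat liver and renal cortex was biotin-labelled and hybridised to GeneChip rat genome arrays, per the labels' protocols. The authors deposited 1 table of log2 values (31099 probe sets, 12 arrays, 2.17 to 16.5). The log2 scale follows from their range, and affy and limma are named in the submitters' processing notes; for background correction, normalization and summarisation the method is not given in the sources used here. Probe sets were named from the platform annotation: 20826 had 1 symbol, 436 several and 9780 none, and 57 control sets were left out. Of the named sets, 20758 were found in RefSeq (GRCr8).

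Genes whose mean lay above the 40th percentile over all probe sets (2.55 over 12 arrays, 2.45 in liver, 2.43 in kidney) were tested with limma 3.58.1 in R 4.3.3 on the deposited values (4 group means, two-sided, Benjamini-Hochberg over all genes tested, threshold 0.05). The fit treats the 12 arrays as independent, although liver and kidney came from the same 6 rats. With 3 arrays per group, the number of arrays limits the precision. Control probe sets were compared by exact permutation within tissue, which also takes liver and kidney arrays as independent. The scripts were tested on simulated data.

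The comparison, the 18 pathway and 12 marker lists and the rules were chosen with earlier results of these data known. Named were the 12 genes per direction with the smallest p, the 10 largest opposite effects per orientation, the 6 leading tissue-limited genes per direction (and 3 not measurable in the other tissue), up to 4 leading members per pathway list, and preset methionine, folate and clock genes; other genes were named after their values were seen. Alternatives were other filters, probe set rules, normalizations, variance models, array weights, blocks, a threshold of 0.1, the control probe set gaps as covariates, and leaving out each array; the Actb covariate and the recomputed lists were added after seeing the data.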

Additional observations from a re-analysis of the deposited data

Results flagged for a closer look

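The TCE effect differed between liver and kidney, by the test of the difference itself (limma, adjusted p under 0.05, 3 arrays per group), for 35 of the genes named by the rules. The difference, liver minus kidney in log2 units, was above 0 for 16 of them: Tagln 1.36, Per3 2.11, Myo18a 0.92, Mafg 0.93, Dlgap4 1.12, Sphkap 1.31, Ccdc191 1.30, Dbp 2.14, Zbtb24 0.87, Raver1 0.94, Mdc1 1.11, Mki67 2.35, Zfp213 0.88, Abca4 0.90, Eif5b 0.62 and Slx4 1.44. It was below 0 for 19: Phaf1 -2.52, St6galnac3 -1.35, Magt1 -1.31, Msra -1.58, Prkacb -0.81, Tmem160 -0.77, Tmem14c -0.90, Me1 -1.18, Pdk1 -1.79, Zfp64 -1.56, Skp1 -0.91, Rhoa -0.74, Ndufb8 -1.0, Uqcrc2 -0.79, Ces1e -0.87, Dld -0.84, Klk1c4 -3.86, Slc17a1 -0.98 and Rgs12 -1.56. Of these, 4 were not measurable in 1 tissue, Klk1c4 in liver and Zfp64, Ccdc191 and Rgs12 in kidney. Their difference rests on the effect in the other tissue, and they passed the filter through the 1 group where they were high. All 35 calls were lost without kidney TCE replicate 1, when the Gapdh gap entered as a covariate, and with the rat as a replicate block.

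The gap between 3' and 5' control probe sets also differed between the tissues in its response to TCE, by 0.992 for Gapdh (exact permutation p = 0.01) and 0.864 for Actb (exact permutation p = 0.035). Both tests take the tissues as independent, although they came from the same 6 rats. Without each array in turn, the Gapdh value stayed between 0.887 and 1.13 with exact permutation p-values of at most 0.02.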

How the results depend on the processing

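The count of 57 genes became 123 with array weights, 190 at an adjusted p under 0.1, 24 with the Actb gap as a covariate and 0 with the Gapdh gap as a covariate (568 at an unadjusted p under 0.05), and lay between 0 and 108 without each array in turn. Other filters, averaging over the probe sets per gene, a second quantile normalization, centring of the arrays, trend and robust variances and leaving out flat genes gave 51 to 85. Centring moved the split at an unadjusted p under 0.05 from 1064 of 1861 above 0 to 875 of 1750. Array weights raised opposite effects from 115 to 180, kidney-limited effects from 540 to 838 and effects of the same direction from 5 to 8. The Gapdh covariate lowered liver-limited effects from 792 to 191, kidney-limited effects to 10 and those of the same direction to 2. Without each array in turn, opposite effects numbered 79 to 176, liver-limited 610 to 931, kidney-limited 330 to 788 and same direction 2 to 10; the gap differences were 0.887 to 1.13 (Gapdh) and 0.692 to 1.16 (Actb, exact permutation p up to 0.135). Against 138 genes in liver and 10 in kidney for the tissue effects over 12 arrays, limma on the 6 arrays of each tissue called 0 and 0 (1546 and 1566 at an unadjusted p under 0.05). None of the 57 genes changed sign under the alternatives in which it was tested. Among named genes not past it, signs did change (Pcna, Kyat3 and Nfil3 with the Gapdh covariate, for example), and so did list medians: with that covariate those of the respiratory chain (-0.128 to 0.0422), TCE oxidation (0.0649 to -0.165), PPAR-alpha (0.0394 to -0.161), transporter (0.135 to -0.0935) and glucocorticoid lists (-0.0627 to 0.511).

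Whether equal replicate numbers pair the arrays is not settled by the labels. Deviations of same-numbered liver and kidney arrays correlated at -0.01 to 0.08, each best with its own number in 4 of 6 cases. In controls, numbers 1 to 3 gave 0.0582, 0.0481 and 0.0800, with the best other match below 0 for each. In TCE, only number 3 was best with its own. Same-numbered TCE and control arrays, from different rats, correlated at -0.09 to 0.01, in 0 of 6. The latter do not bear on a pairing of liver with kidney. The main fit did not take the numbers as pairs, and these values do not settle whether it should have. With the rat as a replicate block the count was 0 (1734 at an unadjusted p under 0.05), and with the replicate number as a replicate block 5. Classes could not be recomputed with the rat block, which leaves no estimate of the effect within a tissue. Genes near the lowest signal in a tissue, such as Klk1c4 in liver and Rgs12 in kidney, have no measurable effect there.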
